A study of Mus musculus with 6 samples.

Results

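The unfolded protein response and ATF4 genes were a list of 50 genes, described here in mouse podocytes under high glucose (HG) with and without FGF1. Members were found by symbol in the deposited table of 24469 loci, taking the locus with the highest mean where a symbol had several. Of the 50 genes, 49 had a locus, and *Cebpb* is not analysed here. By role, the list held 15 chaperones and folding enzymes of the endoplasmic reticulum (ER), 5 genes of ER-associated degradation (ERAD), 5 stress sensors with their factors, 14 regulators and stress targets around ATF4, and 11 genes of amino acid synthesis, transport and tRNA charging. RNA-Seq was performed on MPCs, a conditionally immortalized mouse podocyte line at passages 10 to 15, which multiplied at 33 °C with interferon gamma (50 U/mL) and were differentiated for 10 days at 37 °C without it. The growth medium held 5.5 mM glucose. All 3 groups were starved of serum for 12 h and then kept in 25 mM glucose for 12 h, and each group had 2 libraries. The HG group received no FGF1, and the rFGF1WT group received 100 ng/mL of recombinant wild-type FGF1 for 1 h before HG. The rFGF1ΔHBS group received, also for 1 h before HG, 100 ng/mL of the variant whose heparan sulfate binding is weakened. No library without HG was analysed here, so every comparison is between cells in HG. The labels do not say that the 2 libraries of a group came from separate cultures. The p-values therefore set group differences against a spread between libraries that may be only technical.

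The unfolded protein response is the programme by which a cell answers misfolded protein in the ER. IRE1 (encoded by *Ern1*) splices *Xbp1* mRNA, ATF6 is cut free from the membrane, and both factors raise chaperones and ERAD genes through promoter elements known as ERSE. PERK (encoded by *Eif2ak3*) phosphorylates eIF2α, as GCN2 (*Eif2ak4*) does when amino acids run short, which slows translation in general while favouring translation of ATF4, a factor that raises genes of amino acid supply and of the stress response through C/EBP-ATF elements. Podocytes help to build the glomerular basement membrane and the slit diaphragm, and ER stress is a known feature of podocyte injury. Splicing of *Xbp1*, cleavage of ATF6 and translation of *Atf4* cannot be read from gene-level values.

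Values were FPKM, the fragments of a gene scaled to the length of its transcripts and to the mapped fragments of the library, and differences were tested with limma on log2(FPKM + 1) over the 10562 loci whose FPKM averaged at least 1, which included all 49 members found. A gene was called at a Benjamini-Hochberg adjusted p under 0.05 over all of these loci. FPKM totals lay between 179594 and 185168 per library. Read depth is unknown from FPKM, although the steps of low values put the libraries at 0.973 to 1.01 of the depth of the first HG library. That search took in only near-equal ratios of low values, of which the most common ratio held 13.5% to 17.0%. Of 12 podocyte markers, 11 had a locus and 6 had a mean FPKM of at least 1, while the defining marker *Wt1* was at most 0.0731 FPKM in any library. Summed podocyte marker FPKM were 185 and 180.2 in HG, 231 and 234 with rFGF1WT, and 213 and 225 with rFGF1ΔHBS. The treated sums were higher through *Kirrel*, *Actn4* and *Cd2ap*, whereas *Synpo* went from 9.58 and 10.2 FPKM in HG to between 4.01 and 6.83 in the treated libraries. The 6 endothelial markers summed to 0.297 to 0.737 FPKM. Among macrophage markers, *Cd68* was 53.1 and 50.1 FPKM in HG and 63.1 to 67.3 in the treated libraries, *Csf1r* was 9.56 and 10.7 in HG and 3.21 to 3.94 in the treated ones, *Ptprc* was at most 0.0548 and *Adgre1* at most 0.0136 FPKM. Summed mesangial marker FPKM, almost all of it *Pdgfrb*, were 34.3 and 35.0 in HG and 29.3 to 30.6 in the treated libraries. *Gata3*, the only other mesangial marker with a mean FPKM of at least 1, went the other way and was higher in every treated library. Summed tubule marker FPKM, almost all of it *Cdh16* and *Lrp2*, were 114 and 124 in HG, 94.5 and 93.4 with rFGF1WT, and 91.4 and 96.6 with rFGF1ΔHBS, and the part of these marker differences in the results was not tested.

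With rFGF1WT, 4 of the 49 members (8.16%) were called against HG, and all 4 were higher: *Atf4*, *Ddit4*, *Slc7a1* and *Phgdh*. With rFGF1ΔHBS, 3 members (6.12%) were called, all higher: *Atf4*, *Ddit4* and *Slc7a1*. Each of these genes belongs to the ATF4 side of the list, and no chaperone, ERAD gene or sensor was called in any comparison with all 6 libraries. Over all tested loci, 6.19% were called with rFGF1WT and 6.26% with rFGF1ΔHBS. Counted as higher only, 3.26% and 3.37% of all loci were called, beside the 8.16% and 6.12% of members, which are 4 and 3 genes. At the 2-fold limit of the study's methods, 0 members were called in either comparison, against 1.01% and 0.899% of all loci. At an unadjusted p under 0.05, 12 members (24.5%) passed with rFGF1WT and 13 (26.5%) with rFGF1ΔHBS, beside 24.8% and 24.9% of all loci. Both comparisons share the same 2 HG libraries.

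The ER chaperones and folding enzymes, which hold, fold and cross-link new secretory proteins, were abundant and lay close to their HG levels. Mean FPKM over the 6 libraries ran from 3.59 for *Manf*, a secreted ER stress factor measured as a locus merged with *Rbm15b*, to 180.2 for *Hsp90b1*, with a median of 47.4, against a median of 7.91 over all tested loci. The summed chaperone FPKM were 1079 and 1070 in HG, 1076 and 1056 with rFGF1WT, and 1067 and 1041 with rFGF1ΔHBS. The sums of HG and rFGF1WT overlapped, and those of rFGF1ΔHBS lay just under HG.

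*Hspa5* encodes BiP, the main ER chaperone and the usual readout of the response. It measured 76.3 and 66.9 FPKM in HG, 77.3 and 78.4 with rFGF1WT, and 79.8 and 74.4 with rFGF1ΔHBS. The second HG library was the lowest, and the first HG library lay within the range of the rFGF1ΔHBS libraries. The log2 fold change of *Hspa5* was 0.12 with rFGF1WT (95% interval -0.10 to 0.34, limma adjusted p = 0.431) and 0.11 with rFGF1ΔHBS (-0.11 to 0.33, limma adjusted p = 0.48). *Hsp90b1* encodes GRP94, the ER member of the HSP90 family, and its locus was merged with *Gm15344*. It measured 175 and 173 FPKM in HG, 183 and 181 with rFGF1WT, and 189 and 179.7 with rFGF1ΔHBS. Both treated groups lay above HG without overlap, by log2 fold changes of only 0.07 and 0.08 (limma adjusted p = 0.408 and 0.341), and the first of these turned to -0.02 under quantile normalization.

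Of the 15 chaperone genes, 7 had a positive and 8 a negative fitted change with rFGF1WT, and 8 and 7 with rFGF1ΔHBS. The median log2 fold changes were -0.01 and 0.04, beside -0.04 and -0.04 over all loci, and under median-ratio scaling of the libraries they were 0.04 and 0.08. Without HG replicate 1 the first was 0.06, and without HG replicate 2 the second was 0.0001. In every one of the 3 comparisons, the 95% interval of all 15 chaperones lay within a 2-fold change, and that of 12, 12 and 14 of them within 1.5-fold. These intervals are on the log2(FPKM + 1) scale, which understates changes of low genes such as *Manf*. The extremes with rFGF1WT were *Dnajb11*, a BiP cofactor (log2 fold change 0.31, limma adjusted p = 0.193), and *Dnajb9*, another one (-0.26, limma adjusted p = 0.278). The lectin chaperone *Calr* measured 163 and 165 FPKM in HG, 150.3 and 146 with rFGF1WT, and 146 and 143 with rFGF1ΔHBS. *Calr* was thus lower in every treated library, by log2 values of -0.15 and -0.18, with limma adjusted p of 0.12 and 0.0822.

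Promoters were searched for the known elements of each arm. The members were listed as genes of these arms, so higher shares than in all windows were built in. The shares are a description and no result of these libraries. In RefSeq promoter windows (GRCm38.p6) of 300 bases, from 250 before to 50 after the gene's start, the letters of ERSE, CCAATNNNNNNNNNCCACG on either strand, were found in 7 of 13 chaperone genes with a window (53.8%) and in 39 of 32851 windows in all (0.12%). ERSE-II, ATTGGNCCACG on either strand, was found in *Dnajb11* and in the ERAD gene *Herpud1*, and in 12 windows in all (0.04%). Windows were at hand for 43 members. Branch shares count genes with the element in any of their windows, while the share in all counts single windows. The sequences below show the element in 4 of these 7 genes, none of which was called, and in *Herpud1*, whose window holds elements of both arms, with capitals marking the ERSE or ERSE-II letters and, in *Herpud1*, first the C/EBP-ATF letters and then ERSE-II. Each is written 5′ to 3′ on the gene's own strand, so an element on the other strand appears as its reverse complement. *Hsp90b1* holds ERSE once in each direction, and no motif shown overlaps another.
Hspa5, chr2:34772010-34772058, plus strand: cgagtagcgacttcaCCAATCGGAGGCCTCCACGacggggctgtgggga
Hsp90b1, chr10:86705518-86705671, minus strand: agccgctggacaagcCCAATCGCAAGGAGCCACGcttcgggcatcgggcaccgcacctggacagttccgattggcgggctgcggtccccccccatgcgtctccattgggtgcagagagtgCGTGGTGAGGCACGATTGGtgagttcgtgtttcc
Calr, chr8:84847060-84847108, minus strand: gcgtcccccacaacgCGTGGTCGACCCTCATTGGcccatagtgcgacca
Pdia6, chr12:17266476-17266524, plus strand: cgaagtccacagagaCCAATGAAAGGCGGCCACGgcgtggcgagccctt
Herpud1, chr8:94386302-94386402, plus strand: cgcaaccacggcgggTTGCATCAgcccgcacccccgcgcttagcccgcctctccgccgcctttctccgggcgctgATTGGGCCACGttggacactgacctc

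**Figure D1:**
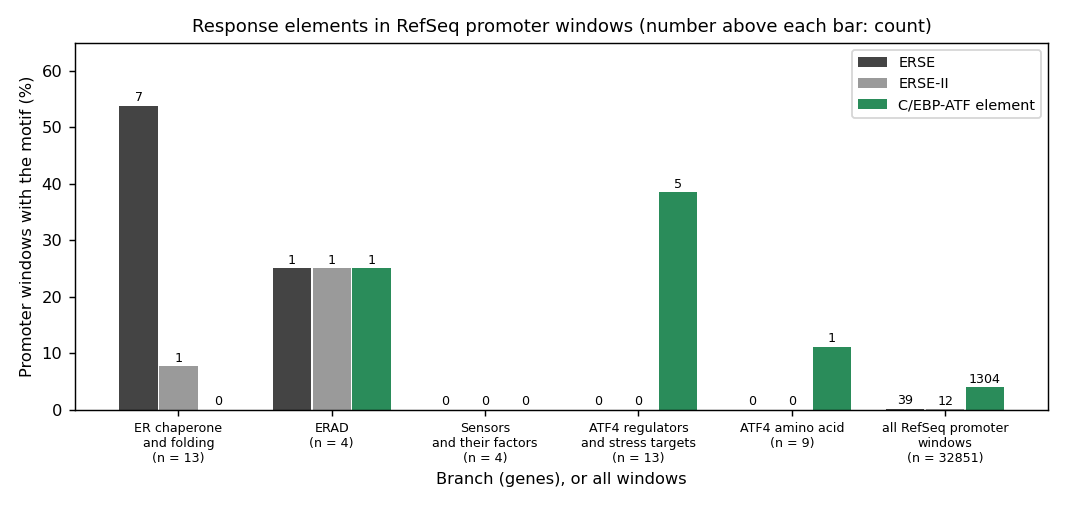
Share (percent, y axis) with the letters of ERSE (dark bars), ERSE-II (light bars) or the C/EBP-ATF element (green bars) in RefSeq promoter windows. The x axis gives the 5 branches, counted as genes with the element in any window, and all 32851 windows, counted singly. The count stands above each bar. ERSE was found in 7 of 13 chaperone genes, against 0.12% of all windows. The C/EBP-ATF element was found in 5 of 13 genes of ATF4 regulators and stress targets, against 3.97% of all windows. The branches were listed as genes of these arms, so the shares are descriptive only.

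ERAD genes, which draw misfolded proteins out of the ER for destruction, had mean FPKM between 5.99 and 20.5 and were not called with either protein. *Herpud1*, an organizer of the ERAD complex, measured 11.2 and 14.1 FPKM in HG, 15.2 and 17.0 with rFGF1WT, and 16.1 and 17.0 with rFGF1ΔHBS. Every treated library lay above both HG libraries, but the HG libraries themselves were spread, and the log2 fold changes of 0.33 and 0.37 did not pass (limma adjusted p = 0.217 and 0.18). *Edem1*, which picks out glycoproteins for degradation, measured 4.87 and 4.65 FPKM in HG, 7.29 and 4.48 with rFGF1WT, and 7.36 and 7.30 with rFGF1ΔHBS. Its rFGF1WT libraries fell on either side of HG, while both rFGF1ΔHBS libraries were above (log2 fold change 0.53, limma adjusted p = 0.221). *Sel1l* and *Syvn1*, the adaptor and the ubiquitin ligase of the same complex, had log2 fold changes between -0.33 and 0.02. The branch medians of -0.07 with rFGF1WT and 0.37 with rFGF1ΔHBS rest on 5 genes, 1 of which is *Derl1*. The first was 0.03 without HG replicate 1 and -0.28 without rFGF1WT replicate 2, and the second was 0.21 without HG replicate 1 and 0.04 without HG replicate 2.

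*Derl1*, a channel protein of the complex, took 2 levels among the libraries. It measured 31.6 and 11.4 FPKM in HG, 12.1 and 11.4 with rFGF1WT, and 28.5 and 27.9 with rFGF1ΔHBS. The first HG library thus lay with the rFGF1ΔHBS libraries and the second with the rFGF1WT libraries. The fitted difference of *Derl1* between rFGF1ΔHBS and rFGF1WT was 1.19 on the log2 scale (95% interval -0.08 to 2.47), and limma gave it an adjusted p of 0.905 with all 6 libraries fitted. That p was 0.037 when only the 4 libraries of the 2 treated groups were fitted, 0.038 without HG replicate 1 and 0.035 without HG replicate 2, so the call depends on whether the spread of the HG pair enters the error. Against HG the direction depended on which HG library was kept. Without HG replicate 1, the log2 fold change was 0.03 with rFGF1WT and 1.23 with rFGF1ΔHBS (limma adjusted p = 0.0338), and without HG replicate 2 it was -1.35 with rFGF1WT (limma adjusted p = 0.0228) and -0.16 with rFGF1ΔHBS.

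The sensors and their factors had mean FPKM between 2.39 and 8.92, with a median of 6.90 near the 7.91 of all tested loci, and were not called. *Xbp1*, the factor made by IRE1 splicing, measured 9.55 and 8.71 FPKM in HG, 8.49 and 9.30 with rFGF1WT, and 8.92 and 8.55 with rFGF1ΔHBS. These groups overlapped, with log2 fold changes of -0.03 and -0.06. The sign of the first depended on the library scaling and the library left out, and that of the second turned only without HG replicate 1. *Atf6*, the membrane-bound factor cleaved in the Golgi, measured 8.10 and 8.26 FPKM in HG, 8.68 and 8.45 with rFGF1WT, and 8.97 and 8.89 with rFGF1ΔHBS. The HG libraries were the lowest, by log2 values of only 0.06 and 0.11 (limma adjusted p = 0.537 and 0.279). The PERK gene *Eif2ak3* measured 8.26 and 6.20 FPKM in HG, 6.59 and 6.61 with rFGF1WT, and 6.78 and 6.94 with rFGF1ΔHBS, and *Ern1* measured 3.68 and 2.19, 1.80 and 2.23, and 1.90 and 2.54 in the same order. In both genes the first HG library was the highest of the 6 and the second lay among or below the treated ones. The log2 fold changes were -0.10 and -0.06 for *Eif2ak3* and -0.36 and -0.27 for *Ern1*. Without HG replicate 1, *Eif2ak3* turned to 0.08 and 0.13. *Eif2ak4*, the amino acid sensor, had log2 fold changes of 0.04 and 0.13. On the log2(FPKM + 1) scale, the intervals of all 5 genes lay within a 2-fold change in each comparison. That scale understates changes of low genes such as *Ern1*, whose fitted fall with rFGF1WT was larger when less than 1 was added to FPKM. The 2-fold limit is therefore not shown for *Ern1* on other scales.

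Among the regulators and stress targets around ATF4, *Atf4* and *Ddit4* were higher with both proteins. *Atf4* (chr15:80255184-80257541, plus strand, GRCm38) encodes the factor on which PERK and GCN2 signalling converge, and it was the most abundant of its branch. It measured 77.2 and 85.4 FPKM in HG, 120.0 and 124 with rFGF1WT, and 128 and 117 with rFGF1ΔHBS. All 4 treated libraries lay above both HG libraries, and the 2 treated groups overlapped. *Atf4* rose with rFGF1WT by a log2 fold change of 0.58 (SE 0.08, 1.5-fold, limma adjusted p = 0.0308) and with rFGF1ΔHBS by 0.59 (SE 0.08, 1.5-fold, limma adjusted p = 0.0308). Under quantile normalization both calls of *Atf4* were lost, with log2 fold changes of 0.53 and 0.54 (limma adjusted p = 0.0778 and 0.0702). In RNA from a culture, more cells of a type and more RNA per cell cannot be told apart.

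*Ddit4* (chr10:59949669-59951834, minus strand, GRCm38) encodes REDD1, a stress-induced inhibitor of mTORC1. It measured 19.5 and 16.8 FPKM in HG, 29.5 and 27.3 with rFGF1WT, and 29.0 and 32.2 with rFGF1ΔHBS. Again the 4 treated libraries were above both HG libraries. *Ddit4* rose by a log2 fold change of 0.62 with rFGF1WT (SE 0.10, 1.54-fold, limma adjusted p = 0.048) and 0.73 with rFGF1ΔHBS (SE 0.10, 1.65-fold, limma adjusted p = 0.0348).

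The classical stress targets were mostly low and did not pass. *Trib3*, a pseudokinase induced by ATF4, measured 1.47 and 1.69 FPKM in HG, 2.44 and 2.47 with rFGF1WT, and 2.31 and 2.94 with rFGF1ΔHBS. Its treated libraries were all above HG, with log2 fold changes of 0.43 and 0.49 (limma adjusted p = 0.124 and 0.0954). At such low FPKM the log2(FPKM + 1) scale understates the change, as the group means were 1.576, 2.455 and 2.621 FPKM in the same order. *Ddit3*, which encodes the apoptotic factor CHOP, measured 7.89 and 6.72 FPKM in HG, 7.76 and 7.38 with rFGF1WT, and 8.33 and 8.18 with rFGF1ΔHBS. The rFGF1WT libraries fell between the 2 HG libraries, and the log2 fold changes were 0.05 and 0.16 (limma adjusted p = 0.774 and 0.357). *Ppp1r15a*, the GADD34 subunit that reverses eIF2α phosphorylation, measured 6.19 and 7.52 FPKM in HG, 7.00 and 6.07 with rFGF1WT, and 6.39 and 6.27 with rFGF1ΔHBS, with overlapping groups and log2 fold changes of -0.06 and -0.09.

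*Atf3* and *Chac1*, a stress factor and a glutathione-degrading enzyme, had widely spread HG libraries. *Atf3* measured 1.58 and 4.37 FPKM in HG, 3.79 and 3.39 with rFGF1WT, and 4.02 and 3.60 with rFGF1ΔHBS. The HG libraries were thus the lowest and the highest of the 6, and without HG replicate 1 the log2 fold changes of 0.30 and 0.37 became -0.23 and -0.16. *Chac1* measured 2.46 and 1.16 FPKM in HG, 2.38 and 3.15 with rFGF1WT, and 2.28 and 2.78 with rFGF1ΔHBS, with overlapping groups and log2 fold changes of 0.46 and 0.37 (limma adjusted p = 0.38 and 0.469).

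Of the 13 regulators and stress targets tested, 10 had a positive and 3 a negative fitted change with each protein. Over all 10562 loci, 4611 and 4681 were positive with rFGF1WT and rFGF1ΔHBS. The median log2 fold changes of the 13 were 0.40 with rFGF1WT and 0.37 with rFGF1ΔHBS, beside -0.04 and -0.04 over all loci. Without HG replicate 2 these medians were 0.13 and 0.06, the second was 0.24 without rFGF1ΔHBS replicate 1, and it was 0.16 over the members with a mean FPKM of at least 5. In 5 of the 13 both treated libraries lay above both HG libraries, with each protein (38.5%), against 24.1% and 24.4% of all loci. The summed FPKM of the branch, of which *Atf4* is the largest term, were 176 and 183 in HG, 237 and 254 with rFGF1WT, and 260 and 229.5 with rFGF1ΔHBS. *Vldlr* and *Atf5* had log2 fold changes between 0.40 and 0.55 without passing, while *Nupr1*, *Stc2* and *Ppp1r15a* had values between -0.20 and -0.02. *Cebpg* had 1.67 with rFGF1WT and 0.13 with rFGF1ΔHBS, from libraries that differed widely within HG and within rFGF1ΔHBS.

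**Figure D2:**
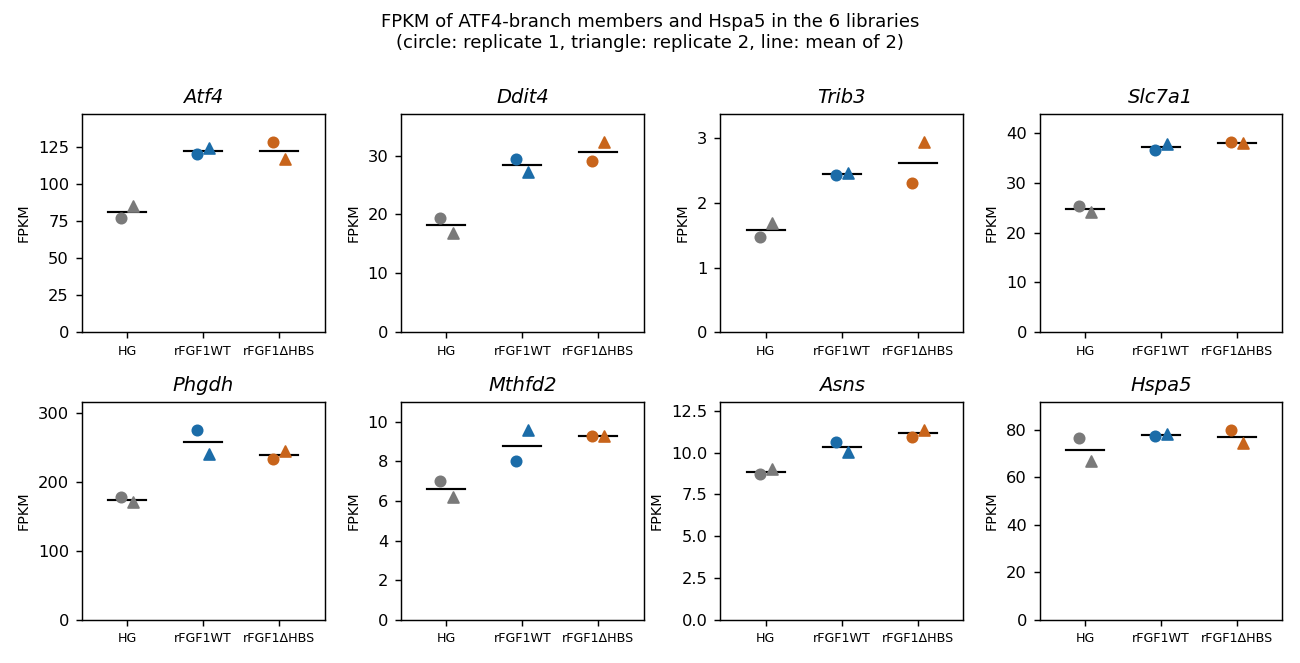
FPKM (y axis, from 0) of 7 ATF4-branch members and *Hspa5* in HG, rFGF1WT and rFGF1ΔHBS (x axis), with a circle for replicate 1, a triangle for replicate 2 and a line at their mean. *Atf4*, *Ddit4*, *Slc7a1* and *Phgdh* lay higher in all 4 treated libraries, while *Hspa5* had 1 HG library at the treated level.

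The C/EBP-ATF element, searched as TGATGNAA on either strand, was found in 5 of 13 genes of this branch (38.5%) and in 1 of 9 of the amino acid branch (11.1%). It was also found in *Herpud1* and in 1304 of all windows (3.97%). As with ERSE, the genes were listed for this arm, so these shares are a description. The 4 windows below hold it, in capitals, in usual readouts of ATF4, none of which was called. The windows of *Atf4*, *Ddit4*, *Slc7a1* and *Phgdh* did not hold the letters of any of the 3 elements, which says only that these letters are not in that stretch.
Asns, chr6:7693210-7693247, minus strand: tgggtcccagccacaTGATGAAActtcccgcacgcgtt
Atf3, chr1:191183421-191183458, minus strand: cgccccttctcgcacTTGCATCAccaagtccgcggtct
Chac1, chr2:119351034-119351071, plus strand: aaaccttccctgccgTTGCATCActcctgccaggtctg
Trib3, chr2:152344024-152344061, minus strand: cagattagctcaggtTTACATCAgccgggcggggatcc

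In the amino acid branch, *Slc7a1* was higher with both proteins and *Phgdh* with rFGF1WT, and most of the other genes had small positive fitted changes that did not pass. *Slc7a1* (chr5:148327410-148399904, minus strand, GRCm38) encodes CAT1, the carrier of cationic amino acids such as arginine. It measured 25.3 and 24.1 FPKM in HG, 36.5 and 37.8 with rFGF1WT, and 38.1 and 37.9 with rFGF1ΔHBS. The replicates of each group lay close together and the treated libraries far above HG. *Slc7a1* rose by a log2 fold change of 0.57 with rFGF1WT (SE 0.05, 1.48-fold, limma adjusted p = 0.0164) and 0.60 with rFGF1ΔHBS (SE 0.05, 1.52-fold, limma adjusted p = 0.0161).

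*Phgdh* (chr3:98313170-98339990, minus strand, GRCm38) encodes the first enzyme of serine synthesis and was the most abundant member of the whole list. It measured 179 and 170.4 FPKM in HG, 275 and 240.4 with rFGF1WT, and 234 and 245 with rFGF1ΔHBS. All treated libraries were above HG, and the rFGF1ΔHBS pair overlapped the rFGF1WT pair. *Phgdh* rose with rFGF1WT by 0.56 on the log2 scale (SE 0.08, 1.47-fold, limma adjusted p = 0.0378). With rFGF1ΔHBS its log2 fold change of 0.45 (SE 0.08, 1.37-fold) just missed the limit (limma adjusted p = 0.0549). The difference of *Phgdh* between the 2 proteins, -0.10 on the log2 scale, did not pass either (limma adjusted p = 0.905).

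*Asns*, asparagine synthetase and a standard ATF4 readout, measured 8.71 and 9.01 FPKM in HG, 10.6 and 10.0 with rFGF1WT, and 11.0 and 11.3 with rFGF1ΔHBS. The 3 groups did not overlap, yet the log2 fold changes of 0.20 and 0.30 did not pass (limma adjusted p = 0.141 and 0.0673). *Mthfd2*, a mitochondrial enzyme of folate metabolism, measured 6.99 and 6.18 FPKM in HG, 7.999 and 9.58 with rFGF1WT, and 9.27 and 9.27 with rFGF1ΔHBS, above HG in every treated library (log2 fold changes 0.37 and 0.44, limma adjusted p = 0.139 and 0.098). The tRNA synthetase gene *Nars* had log2 fold changes of 0.18 and 0.23, and *Slc7a5*, the leucine carrier, 0.19 and 0.14, without passing. *Psph*, the last enzyme of serine synthesis, was the 1 gene of the branch with negative values, -0.17 and -0.15.

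Of the 11 amino acid genes, 10 were higher and 1 lower in fitted value with each protein. Over all 10562 loci, 4611 and 4681 were higher with rFGF1WT and rFGF1ΔHBS. An unadjusted limma p under 0.05 was found for 6 of the 11 in each comparison, beside 24.8% and 24.9% of all loci. Both treated libraries lay above both HG libraries in 9 of 11 (81.8%) with rFGF1WT and in 8 of 11 (72.7%) with rFGF1ΔHBS, beside the 24.1% and 24.4% of all loci. The median log2 fold changes were 0.19 and 0.19. The summed FPKM were 489.5 and 449.6 in HG, 610 and 590 with rFGF1WT, and 574 and 582 with rFGF1ΔHBS, of which *Phgdh* was the largest part. The members share 2 HG libraries and are not independent of each other, so these counts describe the 6 libraries.

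**Figure D3:**
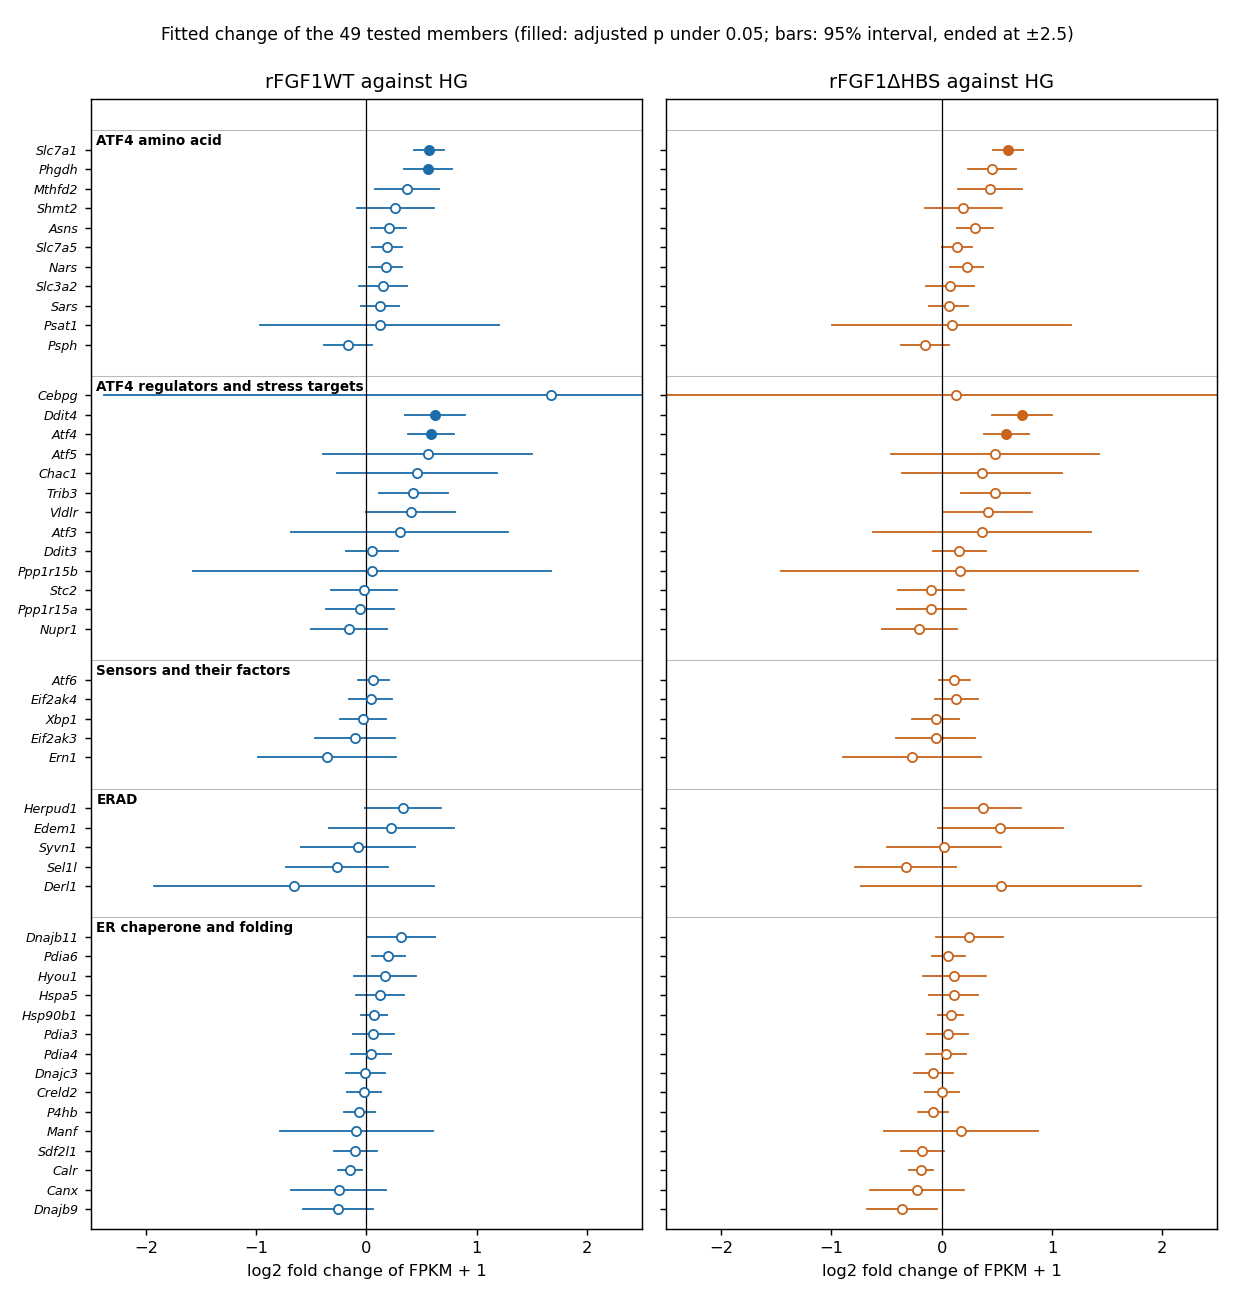
Log2 fold change of FPKM + 1 (x axis) of the 49 tested members by branch (y axis), for rFGF1WT (left) and rFGF1ΔHBS (right) against HG, with 95% intervals from limma, ended at ±2.5; filled points are called at an adjusted p under 0.05. The filled points are *Atf4*, *Ddit4* and *Slc7a1* on both sides and *Phgdh* on the left, and the chaperones lie around 0.

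The rest of the pathway was counted in 3 further lists, whose calls were not followed through the alternative fits. Of 42 other ER quality control genes tested, out of 43 listed, 0 were called higher and 2 lower with each protein (4.76%, beside 6.19% and 6.26% of all loci). These were *Os9*, a lectin that hands glycoproteins to ERAD, and *Wfs1*, an ER membrane protein whose loss causes ER stress. *Os9* measured 32.3 and 33.0 FPKM in HG, 24.5 and 25.3 with rFGF1WT, and 23.4 and 23.8 with rFGF1ΔHBS, and fell by 0.38 and 0.45 on the log2 scale (limma adjusted p = 0.0276 and 0.0213). *Wfs1* measured 16.8 and 16.2 FPKM in HG, 12.1 and 11.7 with rFGF1WT, and 11.3 and 11.4 with rFGF1ΔHBS, and fell by 0.44 and 0.50 on the log2 scale (limma adjusted p = 0.0258 and 0.0213). The median of the list was -0.02 and -0.03, close to the median of all loci.

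Of 23 other ATF4 and amino acid response genes tested, out of 30 listed, 3 were called higher and 1 lower with each protein (17.4% in all, beside 6.19% and 6.26% of all loci), and the list's medians were 0.07 and 0.11. *Mthfd1l*, a mitochondrial folate enzyme, measured 6.21 and 6.09 FPKM in HG, 10.2 and 10.7 with rFGF1WT, and 11.0 and 11.0 with rFGF1ΔHBS (log2 fold changes 0.68 and 0.75, limma adjusted p = 0.0144 and 0.014). *Sesn2*, a leucine-sensing inhibitor of mTORC1, measured 10.0 and 9.89 FPKM in HG, 14.4 and 13.2 with rFGF1WT, and 14.8 and 15.8 with rFGF1ΔHBS (0.43 and 0.57, limma adjusted p = 0.0458 and 0.0261). *Slc1a4*, a carrier of neutral amino acids, measured 2.11 and 2.06 FPKM in HG, 3.24 and 3.27 with rFGF1WT, and 3.24 and 3.09 with rFGF1ΔHBS (0.46 and 0.43, limma adjusted p = 0.0377 and 0.0421). These 3 genes were higher in all treated libraries. The amino acid carrier *Slc38a2*, itself a known ATF4 target, went the other way, from 50.2 and 47.2 FPKM in HG to 34.0 and 36.2 with rFGF1WT and 38.0 and 36.3 with rFGF1ΔHBS, and fell by 0.46 and 0.38 on the log2 scale (limma adjusted p = 0.033 and 0.0477).

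Of 18 cytosolic aminoacyl-tRNA synthetases, which charge tRNAs and include several ATF4 targets, 1 (5.56%) was called with each protein, beside 6.19% and 6.26% of all loci. *Farsb*, a subunit of the phenylalanine enzyme, measured 14.6 and 14.5 FPKM in HG, 17.9 and 17.7 with rFGF1WT, and 18.4 and 18.3 with rFGF1ΔHBS, and rose by 0.27 and 0.31 on the log2 scale (limma adjusted p = 0.0497 and 0.0375). In fitted value 16 were higher and 2 lower with rFGF1WT, and 15 and 3 with rFGF1ΔHBS. Over all 10562 loci, 4611 and 4681 were higher. The medians of the synthetases were 0.18 and 0.19. Both treated libraries lay above both HG libraries in 12 (66.7%) and 13 (72.2%) of the 18 genes, beside 24.1% and 24.4% of all loci.

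**Figure D4:**
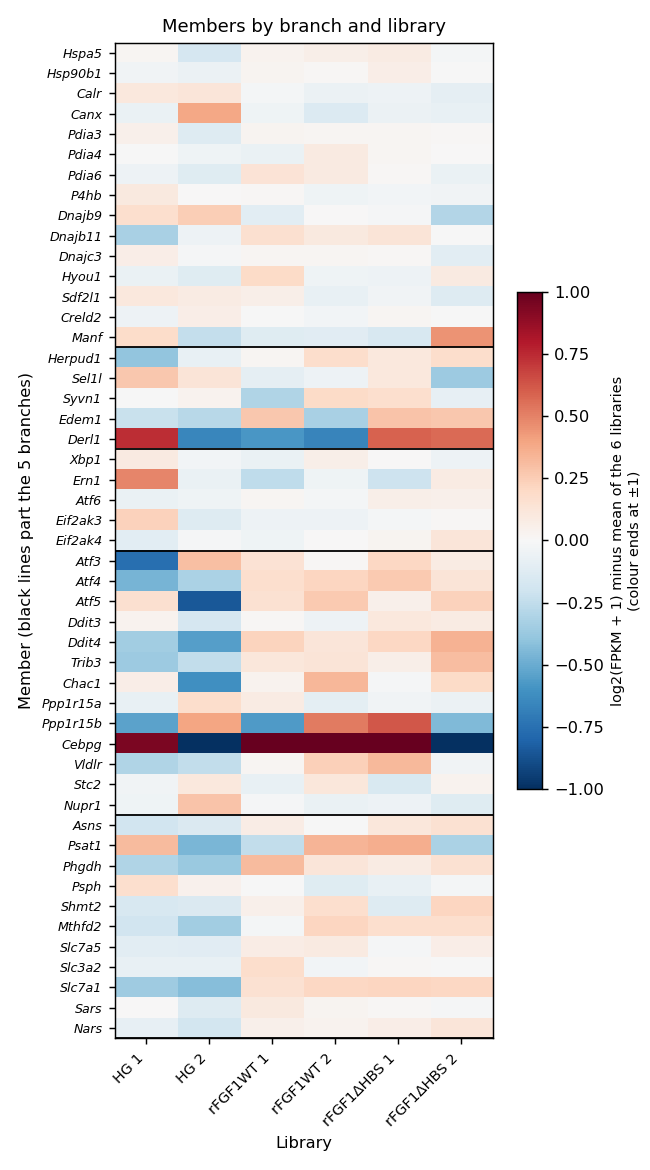
Log2(FPKM + 1) of each of the 49 members minus its mean over the 6 libraries (colour, ended at ±1), with libraries on the x axis and members by branch on the y axis. The chaperone block is pale, *Atf4*, *Ddit4*, *Slc7a1* and *Phgdh* are blue in both HG libraries and red in all treated ones, and *Derl1*, *Ppp1r15b*, *Cebpg* and *Psat1* change colour within groups.

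The 2 proteins were compared directly to ask whether the heparan sulfate binding mutations altered the response of these genes. Between rFGF1ΔHBS and rFGF1WT, 0 of 49 members were called by limma and 0 had an unadjusted p under 0.05, beside 0.549% of all loci called and 4.9% with an unadjusted p under 0.05. The difference, as rFGF1ΔHBS minus rFGF1WT on the log2 scale, was 0.00 for *Atf4* (95% interval -0.20 to 0.21), 0.11 for *Ddit4* (-0.17 to 0.38), 0.03 for *Slc7a1* (-0.10 to 0.17) and -0.10 for *Phgdh* (-0.32 to 0.11). On the log2(FPKM + 1) scale, which understates changes of low genes, the interval lay within a 1.5-fold difference for 38 members and within 2-fold for 43. The intervals of *Derl1*, *Atf3*, *Atf5*, *Ppp1r15b*, *Cebpg* and *Psat1* reached beyond 2-fold, and for *Derl1* the call between the proteins depended on the libraries fitted, as described above. The branch medians of the difference lay between -0.03 and 0.10.

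Some members varied more within groups than between them. In 10 of the 49 (20.4%) the 2 libraries of some group differed by at least 1.5-fold, beside 25.2% of all loci, and 5 of the 10 were ATF4 regulators and stress targets. *Ppp1r15b*, a constitutive partner in eIF2α dephosphorylation, measured 9.30 and 18.6 FPKM in HG, 9.08 and 20.4 with rFGF1WT, and 21.9 and 10.0 with rFGF1ΔHBS. *Psat1*, the second enzyme of serine synthesis, measured 51.0 and 29.5, 34.3 and 51.9, and 52.6 and 32.5 FPKM in the same order. In both genes each group held 1 high and 1 low library. *Cebpg*, a partner of ATF4 at amino acid response genes whose locus was merged with *Gm44836*, measured 8.28 and 0.09 FPKM in HG, 9.40 and 8.90 with rFGF1WT, and 9.61 and 0.15 with rFGF1ΔHBS. It was nearly absent from 2 libraries of different groups and at 1 level in the other 4, so its log2 difference of 1.67 between rFGF1WT and HG had a 95% interval of -2.38 to 5.72 (limma adjusted p = 0.545), and that between rFGF1ΔHBS and rFGF1WT was -1.54 (limma adjusted p = 0.91). *Atf5* measured 10.5 and 4.72 FPKM in HG, 10.5 and 11.4 with rFGF1WT, and 9.66 and 11.1 with rFGF1ΔHBS, with 1 low library among 6.

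**Figure D5:**
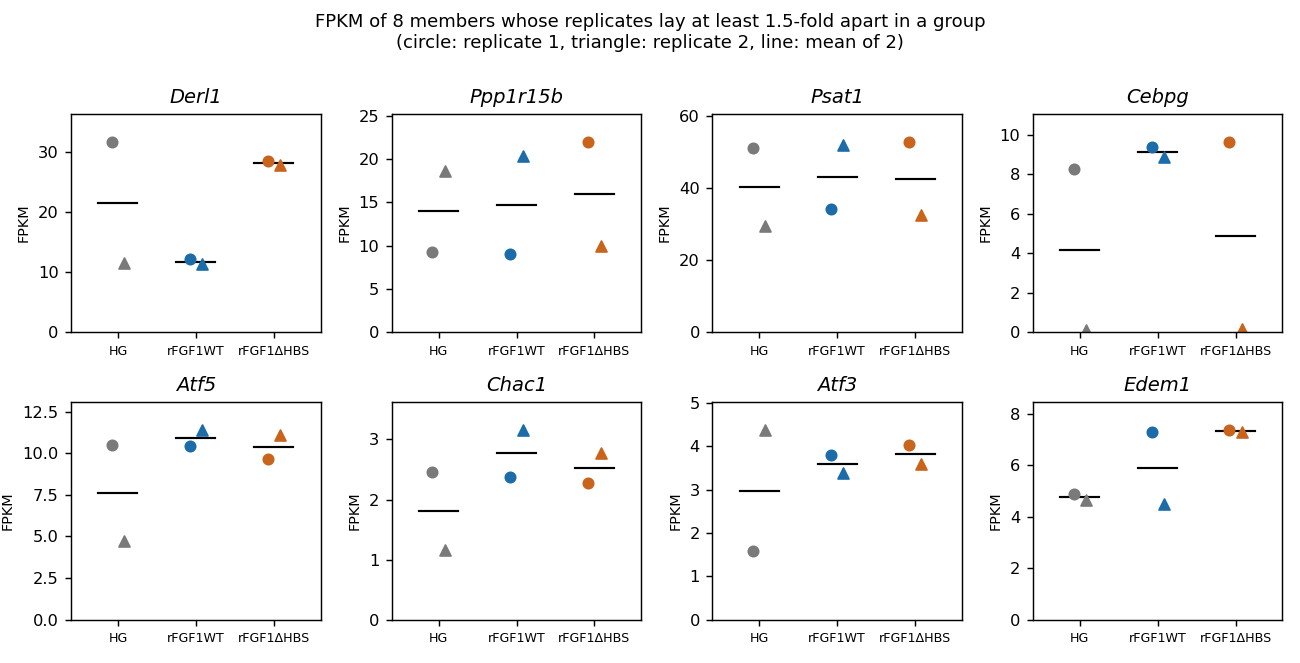
FPKM (y axis, from 0) of 8 members whose replicates differed by at least 1.5-fold in some group, in HG, rFGF1WT and rFGF1ΔHBS (x axis), with a circle for replicate 1, a triangle for replicate 2 and a line at their mean. *Ppp1r15b* and *Psat1* have 1 high and 1 low library in each group, *Cebpg* is near 0 in 1 HG and 1 rFGF1ΔHBS library, and *Derl1* has 1 HG library at each of the 2 treated levels.

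Against HG, the 4 called genes kept their direction in every alternative fit, but not their calls. Under quantile normalization *Atf4* was not called with either protein (limma adjusted p = 0.0778 and 0.0702), and without a filter on low FPKM *Atf4*, *Ddit4* and *Phgdh* were not called (0.0641 to 0.0964), both with all 6 libraries. In fits that left out 1 library, which have 2 residual degrees of freedom in place of 3, the log2 fold change with rFGF1WT ranged from 0.51 to 0.66 for *Atf4*, 0.52 to 0.72 for *Ddit4*, 0.53 to 0.60 for *Slc7a1* and 0.46 to 0.66 for *Phgdh*. Leaving out any single library of the 6 ended the rFGF1WT calls of all 4 genes, with limma adjusted p of 0.0647 to 0.125, 0.0902 to 0.166, 0.0525 to 0.0687 and 0.057 to 0.145. With rFGF1ΔHBS, *Atf4* (0.0757 to 0.109) and *Ddit4* (0.0793 to 0.118) lost their calls in each such fit, and *Slc7a1* kept its call in 2 of 6 (0.0493 to 0.0706). Over all loci such fits called 134 to 195 with rFGF1WT, against 654 with all libraries, and 118 to 198 with rFGF1ΔHBS, against 661.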

How the data were processed

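RNA-Seq covered 6 poly(A) libraries of MPCs, sequenced from both ends on an Illumina HiSeq, with groups and replicate numbers taken from the labels. The authors deposited FPKM per locus, for which their methods name edgeR. The submitters' processing notes list Bowtie 0.12.2, HISAT2 2.0, StringTie 1.3.0 and the build mm8, without their roles. Strand use is not given in the sources used here, so fragments of overlapping or merged loci may be divided in unseen ways. FPKM hold no read totals, and the number of libraries limits the precision.

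The deposited FPKM were put on the log2(FPKM + 1) scale and analysed with limma 3.58.1 under R 4.3.3 (lmFit, contrasts, eBayes with a trend), in 1 fit of 6 libraries with 3 residual degrees of freedom, for loci whose FPKM averaged at least 1. Tests were two-sided, with Benjamini-Hochberg adjustment over all tested loci. Fold changes are on the log2(FPKM + 1) scale and understate changes of low genes. An exact permutation test of 2 against 2 libraries cannot go below p = 0.333 and was not used. On simulated data with 200 of 10562 loci changed for rFGF1WT against HG, 62 of 100 2-fold and 79 of 100 4-fold changes were called, with 10 unchanged loci called. Smaller changes were not simulated. The simulation shuffled the spreads among loci and changed fewer loci than the 654 called in the data, so its rates may not hold there.

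The members and lists were chosen with earlier results of these data known. Named with a value per library were members called, members with a fitted change of at least 2-fold, and usual readouts of each arm, and other genes of the pathway lists where called. *Calr*, *Mthfd2*, *Edem1*, *Ppp1r15b*, *Psat1* and *Atf5* were added after their values were seen. Gene positions came from GENCODE M21 (GRCm38) and promoter windows from RefSeq (GRCm38.p6). Tables and plots used Python 3.11.15, pandas 2.3.3 and matplotlib 3.10.9. Alternatives were leaving out each library, a replicate block, robust empirical Bayes, a fit of only the 4 libraries compared, quantile normalization or median-ratio scaling, another pseudocount, and 3 other filters on low values.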

Additional observations from a re-analysis of the deposited data

How the results depend on the processing

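Members called against HG with rFGF1WT and rFGF1ΔHBS numbered 4 and 3. Without a filter on low FPKM they were 1 and 1 (*Slc7a1* in both), and with only the 4 libraries compared 0 and 1. Leaving out 1 library gave 0 to 1 in each comparison. With only the 4 libraries compared, or without either HG library, the comparison of the 2 proteins gave 1 call in place of 0, which was *Derl1*. Those fits have 2 residual degrees of freedom. The other settings, apart from the replicate block, gave 3 to 4, 2 to 4 and 0, and the gene lost under quantile normalization was *Atf4* with both proteins. Over all alternatives the limma adjusted p of *Slc7a1* ranged from 0.014 to 0.0698 with rFGF1WT and 0.0135 to 0.0737 with rFGF1ΔHBS.

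The labels give each group replicate numbers 1 and 2, but same-numbered libraries did not deviate together (r = -0.021, 0.098 and -0.047), so the numbers were not taken as pairs. A fit with the replicate block called 0, 0 and 0 members, and 41, 39 and 6 of all loci.

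Some log2 fold changes changed sign, and the cause was not tested. With rFGF1WT, *Hsp90b1* became -0.024 under quantile normalization, and *Xbp1* became 0.015 under median-ratio scaling and 0.017 under quantile normalization. Between the 2 proteins, *Atf4* became -0.0073 under median-ratio scaling. Leaving out 1 library at a time, the values with rFGF1WT ranged from -0.094 to 0.026 for *Xbp1*, -0.28 to 0.078 for *Eif2ak3*, -0.23 to 0.83 for *Atf3*, -0.053 to 0.15 for *Ddit3*, -0.18 to 0.065 for *Ppp1r15a* and -1.35 to 0.035 for *Derl1*. With rFGF1ΔHBS they ranged from -0.12 to 0.0034 for *Xbp1*, -0.55 to 0.007 for *Ern1*, -0.24 to 0.13 for *Eif2ak3*, -0.16 to 0.90 for *Atf3*, -0.22 to 0.029 for *Ppp1r15a*, -0.16 to 1.23 for *Derl1* and -1.47 to 1.74 for *Cebpg*. Between the 2 proteins they ranged from -0.062 to 0.069 for *Atf4* and -3.14 to 0.064 for *Cebpg*.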
